A study of Mus musculus with 12 samples.

Results

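Expression of 9 receptor genes, through which growth factors and cytokines act on blood-forming cells, was compared between wild-type and Trim47-/- LT-HSCs, long-term haematopoietic stem cells of the marrow that renew blood throughout life. The genes were Epor, Csf1r, Csf2ra, Csf2rb, Csf3r, Il3ra, Il6ra, Il1r1 and Ifngr1, chosen by name, with the stem cell receptors Kit and Flt3 left out. All 9 were among the 28999 genes of the deposited table, and all 9 passed the filter on low counts. Most of these receptors have no enzyme of their own: the ligand brings receptor chains together, JAK kinases bound to the chains become active, and STAT proteins carry the signal to the nucleus. Csf1r differs in being a receptor tyrosine kinase, and Il1r1 in signalling through MyD88 to NF-kB. In bone marrow, receptors of this kind are known for steering output, Csf1r towards monocytes, Csf3r towards neutrophils and Epor towards red cells. Il3ra, Il6ra, Il1r1 and Ifngr1 let stem and progenitor cells sense infection.

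The 12 RNA-seq libraries fell into 4 groups of 3: untreated wild type, untreated Trim47-/-, wild type given 5-fluorouracil (5-FU) and Trim47-/- given 5-FU. 5-FU kills cycling cells, and the labels give 10 days of treatment. Trim47 encodes an E3 ubiquitin ligase of the tripartite-motif family. The design asks whether expression in LT-HSCs differs with the Trim47 genotype, with 5-FU, and in the response to 5-FU between genotypes. The sources used here do not give the strain, sex or age of the mice, the sorting gate or the deleted part of Trim47.

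Total counts were 14828152 to 14885673 (untreated wild type), 20661120 to 20703198 (untreated Trim47-/-), 15111811 to 15151589 (5-FU wild type) and 13919649 to 13953510 (5-FU Trim47-/-). Trim47 itself, in CPM (counts per 1000000, with library sizes scaled by TMM), was at 24.4 ± 0.531 in the untreated controls and at 19.7 ± 3.63 in the mutants (SD, n = 3 each), log2 -0.31 (SE 0.115, adjusted p = 0.0632). After 5-FU it was at 35.4 ± 2.50 and 11.3 ± 1.09 CPM, log2 -1.64 (SE 0.121, adjusted p = 5.50e-07). Trim47 reads thus remained in all 6 libraries labelled Trim47-/-, and without the deleted part known this level does not check the labels, which are used as given. All 12 LT-HSC markers were detected in every group, Kit at 302 to 495 CPM and Slamf1, which encodes CD150, at 1.89 to 16.3 CPM over the group means. Flt3, a receptor typical of multipotent progenitors, was at 445 to 915 CPM and Mpo, an enzyme of early neutrophils, at 1731 to 3285 CPM. Cd34 and Cd48, listed with Flt3 as progenitor markers, were at 693 to 757 CPM and 52.5 to 105.5 CPM over the group means. The name LT-HSC is that of the labels, and these marker levels do not establish it. The labels name no separate animals, and p-values therefore reflect library-to-library spread alone, possibly technical. That spread was close to counting noise for the typical gene: chi-square per degree of freedom over the 3 libraries of a group, near 1 for counting noise, had a median of 1.03 to 1.10. In bulk RNA, fewer cells of a type and less RNA per cell cannot be told apart.

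Levels of different receptors were compared as CPM per kilobase of merged exons. In untreated wild type, Csf3r, the G-CSF receptor, led at 65.3 ± 0.899, followed by Ifngr1, the ligand-binding chain for interferon-gamma, at 40.5 ± 10.7 (SD, n = 3 each). Csf2ra, the alpha chain for GM-CSF, at 22.97 ± 0.592, and Il1r1, the signalling IL-1 receptor, at 22.7 ± 0.514, overlapped and could not be ordered. Below them stood Csf1r, the M-CSF receptor, at 15.5 ± 0.488, Il3ra, the alpha chain for IL-3, at 12.4 ± 0.469, and Il6ra, the alpha chain for IL-6, at 9.92 ± 0.308. Csf2rb, the beta chain shared by IL-3, GM-CSF and IL-5, was at 7.21 ± 0.137, and Epor, the erythropoietin receptor, was lowest at 1.48 ± 0.0998. No neighbours below Il1r1 overlapped in untreated wild type. Csf3r came first, Ifngr1 next and Epor last in each of the 4 groups, while the middle of the order moved. In untreated Trim47-/-, Il3ra, Csf1r, Il6ra and Csf2rb overlapped each with the next, at means of 10.8, 9.75, 9.38 and 8.56. After 5-FU, Csf1r came below Csf2rb in wild type (9.96 against 14.8), and in Trim47-/- it was at 23.4, next to Csf2ra at 25.2. These levels do not use the deposited FPKM, whose gene length adds up every distinct annotated exon, so that overlapping exons of different transcripts count more than once. For Csf2ra that length is 6168 bases against 2871 bases of merged exons, and the gene spans 4473 bases. By deposited FPKM, Csf2ra (10.4) came below Il1r1 (14.4) and Csf1r (11.3) in untreated wild type.

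**Figure D1:**
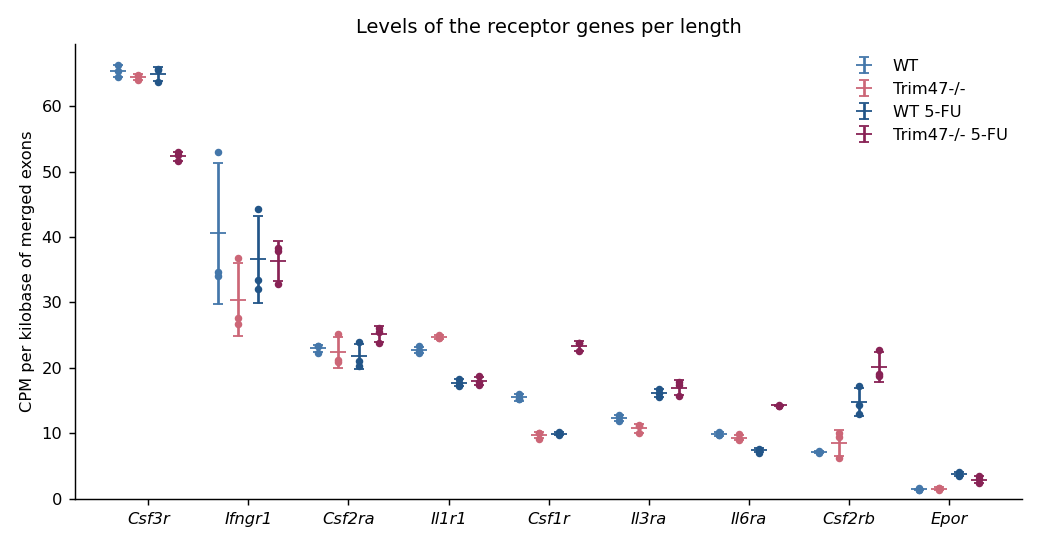
Level of each receptor gene per length (vertical axis, CPM per kilobase of merged exons) in the 4 groups, with points for libraries and bars for mean ± SD (n = 3). Csf3r is highest and Epor lowest in every group, and Csf1r reaches 23.4 in Trim47-/- after 5-FU against 9.96 in wild type after 5-FU.

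Changes were tested with edgeR's quasi-likelihood test on counts, with the threshold at 0.05 for p adjusted by Benjamini-Hochberg over the 16319 genes tested. With Trim47 genotype in untreated mice, 1 of 9 receptors rose and 2 fell, where 33% of all genes passed, 17.6% higher and 15.4% lower. After 5-FU, 4 were higher and 2 lower in Trim47-/- than in wild type, where 54.7% of all genes passed, 27.2% higher and 27.6% lower. The response to 5-FU raised 3 and lowered 3 in wild type (50.6% of all genes passed, 25.2% up and 25.4% down), and raised 5 and lowered 2 in Trim47-/- (60.5%, with 29.6% up and 30.8% down). Differences between the 2 responses passed for 4 receptors, 3 positive and 1 negative (54.9% of all genes, 26.4% positive and 28.5% negative). The libraries of the groups compared did not overlap for 3 receptors with genotype untreated (47.9% of all genes), 5 with genotype after 5-FU (61.3%), 6 with 5-FU in wild type (58.9%) and 7 with 5-FU in Trim47-/- (66.6%). Some of these shares of members lie near those of all genes. Others do not, such as 5 of 9 raised by 5-FU in Trim47-/- (29.6% of all genes) and 1 of 9 negative between responses (28.5%). Members number only 9, so the counts are no result about the receptors. Median log2 changes over the 9 receptors were -0.03, 0.07, -0.08, 0.61 and 0.24 in the same order, against 0.03, 0.00, 0.01, -0.01 and -0.03 over all genes. Each group enters more than 1 comparison, so the comparisons share libraries.

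**Figure D2:**
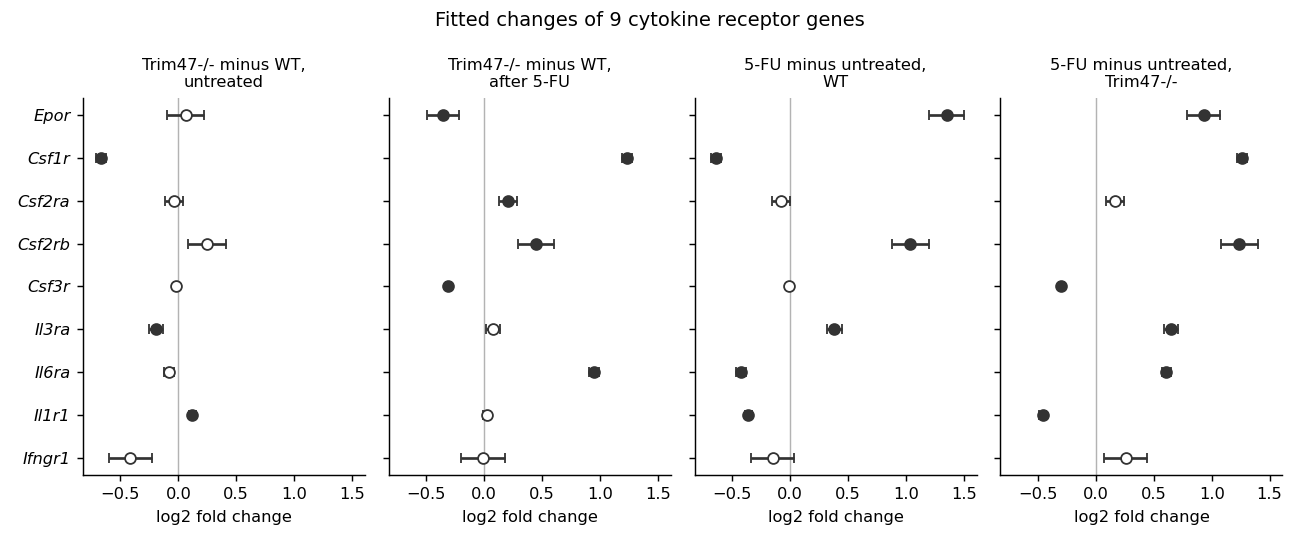
Fitted log2 fold change (horizontal axis) of each of the 9 receptor genes in 4 comparisons, with bars for the standard error and filled points for genes that passed. Csf1r and Il6ra lie on opposite sides of 0 for 5-FU in wild type and in Trim47-/-, while Epor, Csf2rb and Il3ra lie to the right for both.

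Csf1r, which drives monocyte and macrophage output, had the largest difference of the 9 receptors between the 2 responses to 5-FU, and it moved in opposite directions in the 2 genotypes. It stood at 87.8, 92.7 and 87.9 CPM in untreated wild type and at 58.1, 58.0 and 52.8 CPM in untreated Trim47-/-. After 5-FU it was at 56.0, 57.8 and 58.8 CPM in wild type and at 137, 130.2 and 138 CPM in Trim47-/-. Untreated Trim47-/- and 5-FU wild type were alike low, untreated wild type lay between, and all 3 libraries of Trim47-/- after 5-FU were the highest of the 12. Trim47-/- was thus lower than wild type in untreated mice, log2 -0.67 (SE 0.0436, adjusted p = 6.87e-07), and 2.35-fold higher after 5-FU, log2 1.23 (SE 0.0439, adjusted p = 1.71e-09). In wild type Csf1r fell with 5-FU, log2 -0.64 (SE 0.0439, adjusted p = 3.16e-07), and in Trim47-/- it rose, log2 1.26 (SE 0.0437, adjusted p = 7.31e-10). The difference between the responses was log2 1.90 (SE 0.0619, adjusted p = 7.53e-10), and each of the 5 calls held under every alternative run. Monocyte and macrophage markers, summed over 11 genes, were at 585 to 592 CPM in untreated wild type, 436 to 457 in untreated Trim47-/-, 565 to 576 in wild type after 5-FU and 953 to 979 in Trim47-/- after 5-FU. Of these 11, 0 rose and 5 fell in untreated Trim47-/- (17.6% of all genes were higher and 15.4% lower). After 5-FU 10 were higher and 0 lower in Trim47-/- (27.2% of all genes were higher and 27.6% lower). With 5-FU in wild type, where Csf1r fell, 2 of them rose and 5 fell (25.2% of all genes rose and 25.4% fell). None of the 11 was at 0 in any group, the lowest being Fcgr1, an Fc receptor (0.408 to 1.38 CPM over group means), and their part in the Csf1r result was not tested. Csf1r (chromosome 18, 61100598 to 61132149 of GRCm38, plus strand) overlaps Hmgxb3 on the other strand at its end, and Hmgxb3 had 620 to 1198 counts in a library.

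Il6ra, which binds IL-6 and passes the signal through gp130, also turned with 5-FU but did not pass between the untreated groups. It was at 84.6, 83.8 and 88.7 CPM in untreated wild type and 78.3, 85.3 and 79.5 CPM in untreated Trim47-/-, with overlapping libraries, log2 -0.08 (SE 0.0413, adjusted p = 0.163). With 5-FU it fell in wild type to 61.1, 64.4 and 66.5 CPM, log2 -0.42 (SE 0.0419, adjusted p = 7.13e-06). In Trim47-/- it rose to 125, 123.3 and 122.8 CPM, log2 0.61 (SE 0.0411, adjusted p = 1.75e-07). After 5-FU the libraries of Trim47-/- were therefore all above those of wild type, by 1.93-fold, log2 0.95 (SE 0.0418, adjusted p = 8.63e-09). The responses differed by log2 1.03 (SE 0.0587, adjusted p = 6.81e-08), and these 4 calls held under every alternative. Il6ra lies on chromosome 3 at 89864059 to 89913196, minus strand, and its overlapping antisense gene Gm42809 had only 5 to 21 counts in a library.

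Csf3r, the receptor that drives neutrophil production, was lower in Trim47-/- after 5-FU than in the other groups. It stood at 233, 239 and 236 CPM in untreated wild type, 233, 231 and 233 in untreated Trim47-/- and 237, 229.7 and 236 in wild type after 5-FU. In Trim47-/- after 5-FU it was at 191, 189 and 186 CPM, below all other 9 libraries. The change with genotype after 5-FU was log2 -0.31 (SE 0.0210, adjusted p = 2.75e-07), the change with 5-FU in Trim47-/- log2 -0.30 (SE 0.0209, adjusted p = 2.33e-07), and the difference between responses log2 -0.29 (SE 0.0296, adjusted p = 7.60e-06); all 3 held under every alternative. Untreated genotypes differed by -0.02 (SE 0.0208, adjusted p = 0.496) and 5-FU in wild type by -0.01 (SE 0.0209, adjusted p = 0.756), neither of which passed. Neutrophil markers were highest where Csf3r was lowest. Summed over 12 genes they were at 3311 to 3446 CPM and 3239 to 3293 CPM in untreated wild type and Trim47-/-, 4062 to 4134 in wild type after 5-FU and 6498 to 6878 in Trim47-/- after 5-FU. In the comparison where Csf3r fell with genotype, 11 of the 12 markers rose and 0 fell (27.2% of all genes were higher and 27.6% lower). With 5-FU in wild type, where Csf3r did not pass, 9 rose and 0 fell (25.2% and 25.4% of all genes). Between untreated genotypes, where Csf3r did not pass either, 6 rose and 3 fell (17.6% and 15.4%). Of 12 LT-HSC markers, 0 rose and 11 fell with genotype after 5-FU. Their sum was 1019 to 1173 CPM in wild type against 609 to 692 CPM in Trim47-/-. The part of either list in the Csf3r result was not tested. Csf3r lies on chromosome 4 at 126024550 to 126044440, plus strand.

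**Figure D3:**
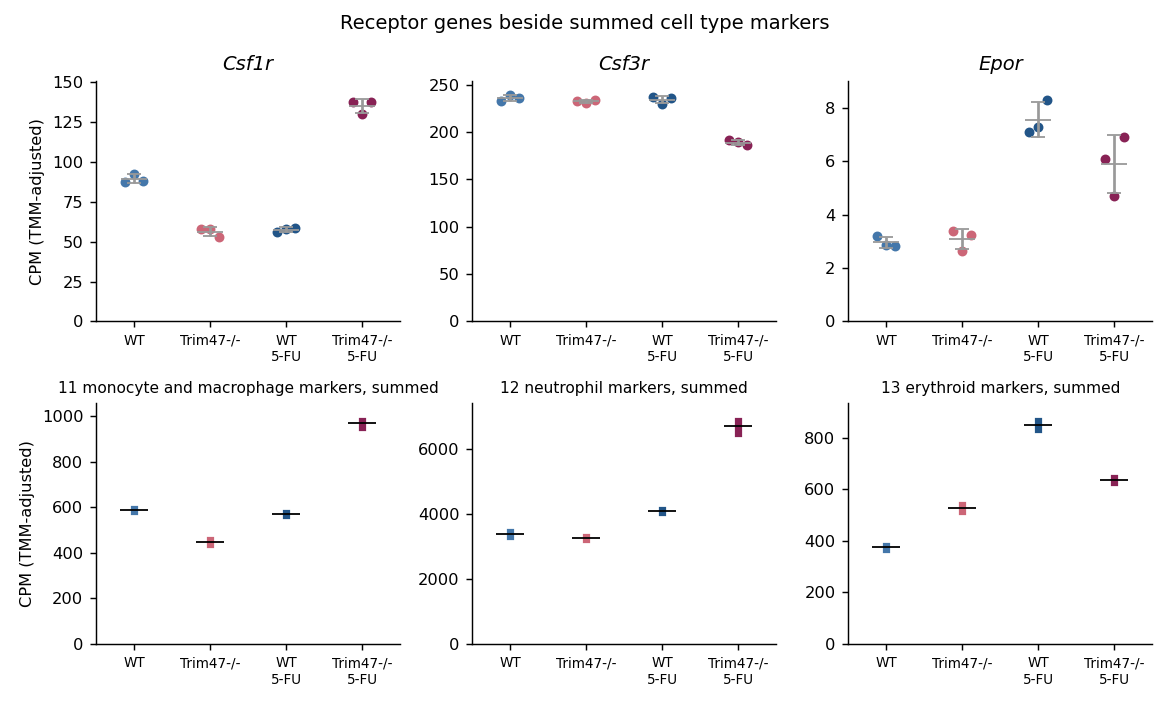
Upper row, CPM of Csf1r, Csf3r and Epor in each library (points) with mean ± SD (n = 3); lower row, summed CPM of 11 monocyte and macrophage, 12 neutrophil and 13 erythroid markers, as the range over 3 libraries with the mean as a line. Csf1r and monocyte markers are both highest in Trim47-/- after 5-FU, where neutrophil markers are highest and Csf3r is lowest.

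In the shared beta-chain family, Csf2rb and Il3ra rose with 5-FU in both genotypes, and Csf2ra passed for 5-FU in neither. IL-3 and GM-CSF each bind their own alpha chain, encoded by Il3ra and Csf2ra, which pairs with the beta chain from Csf2rb; mice carry a second beta-chain gene, Csf2rb2, whose product serves IL-3. Csf2rb was at 53.4, 51.4 and 52.7 CPM in untreated wild type and 68.3, 45.4 and 73.1 CPM in untreated Trim47-/-. After 5-FU it was at 104, 94.2 and 125 CPM in wild type and 138, 136 and 166 CPM in Trim47-/-, so that all 6 libraries after 5-FU lay above all 6 untreated ones. It rose with 5-FU in wild type, log2 1.04 (SE 0.161, adjusted p = 0.000229), and in Trim47-/-, log2 1.24 (SE 0.158, adjusted p = 3.64e-05), and the responses did not pass as different (adjusted p = 0.478). Csf2rb2 was at 27.4, 27.4 and 27.9 CPM in untreated wild type, 21.3, 24.8 and 22.3 in untreated Trim47-/-, 70.7, 74.3 and 77.9 in wild type after 5-FU and 70.0, 71.3 and 69.6 in Trim47-/- after 5-FU. It was lower in untreated Trim47-/- than in wild type (log2 -0.27, adjusted p = 0.00332). It rose 2.69-fold in wild type (adjusted p = 2.47e-09) and 3.08-fold in Trim47-/- (adjusted p = 6.36e-10). The 2 copies are closely alike and neighbours on chromosome 15 (Csf2rb at 78325752 to 78353847, plus strand, and Csf2rb2 at 78282507 to 78305721, minus strand), so reads may be divided between them. Summed over the pair, the libraries stood at 80.8, 78.9 and 80.6 CPM in untreated wild type and 89.7, 70.2 and 95.4 CPM in untreated Trim47-/-. After 5-FU the sums were 175, 168 and 203 CPM in wild type, with 208, 208 and 236 CPM in Trim47-/-.

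After 5-FU, Csf2rb was higher in Trim47-/- than in wild type, log2 0.45 (SE 0.156, adjusted p = 0.0300), with libraries that did not overlap. That call was lost when the pair was summed (log2 0.25, adjusted p = 0.0539), without low-count filtering (0.0983), and without wild-type replicate 1 or 2 after 5-FU (0.0814 and 0.109) or Trim47-/- replicate 3 after 5-FU (0.114). Between untreated groups Csf2rb did not pass, log2 0.25 (SE 0.161, adjusted p = 0.275), and it did without untreated Trim47-/- replicate 2 (log2 0.43, adjusted p = 0.0182). That library had 924 counts against 1394 and 1496 in the other two. Chi-square per degree of freedom was 0.259 for Csf2rb in untreated wild type and 73.3 in untreated Trim47-/-. After 5-FU it was 36.5 in wild type and 25.6 in Trim47-/-. The 90th percentile over genes with a mean of at least 20 counts was 6.01 to 6.75.

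Il3ra was at 35.1, 37.1 and 37.8 CPM in untreated wild type and 33.05, 29.7 and 33.5 CPM in untreated Trim47-/-. It rose with 5-FU to 47.9, 49.7 and 46.1 CPM in wild type, log2 0.38 (SE 0.0624, adjusted p = 0.000330). In Trim47-/- the rise was to 52.8, 51.8 and 46.6 CPM, log2 0.65 (SE 0.0622, adjusted p = 3.32e-06). Both rises held under every alternative, and the 6 libraries after 5-FU lay above the 6 untreated ones. The lower level in untreated Trim47-/-, log2 -0.19 (SE 0.0626, adjusted p = 0.0344), was lost with the replicate block (0.0587), without low-count filtering (0.0736), and without untreated wild-type replicate 2 or 3 (0.0929 and 0.109), untreated Trim47-/- replicate 1 or 2 (0.0539 and 0.136) or wild-type replicate 1 after 5-FU (0.0503). Its response was larger in Trim47-/-, log2 0.27 (SE 0.0879, adjusted p = 0.0232), which was lost without low-count filtering (0.0834), and without untreated wild-type replicate 3 (0.0525), untreated Trim47-/- replicate 2 (0.0551), wild-type replicate 3 after 5-FU (0.0539) or Trim47-/- replicate 1 or 2 after 5-FU (0.0571 and 0.0536). Csf2ra stayed between 58.5 and 75.1 CPM in all 12 libraries, at 66.0 ± 1.70 and 64.4 ± 6.79 CPM in untreated wild type and Trim47-/- and 62.6 ± 5.55 and 72.2 ± 3.36 CPM after 5-FU (SD, n = 3 each). Its only call, Trim47-/- against wild type after 5-FU, log2 0.21 (SE 0.0776, adjusted p = 0.0408), came with overlapping libraries. It was lost with the replicate block (0.0597), without low-count filtering (0.152), and without untreated wild-type replicate 2 (0.0506), wild-type replicate 1 or 2 after 5-FU (0.141 and 0.117) or Trim47-/- replicate 1 or 3 after 5-FU (0.092 and 0.119). Without untreated Trim47-/- replicate 2, Csf2ra passed for 5-FU in Trim47-/- (0.00851) and for the difference between responses (0.0114), and it passed for the latter without wild-type replicate 3 after 5-FU (0.0216). Il3ra lies on chromosome 14 at 14346275 to 14356011, plus strand, and Csf2ra on chromosome 19 at 61223957 to 61228429, minus strand.

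The ratio of beta to alpha chains per length, (Csf2rb + Csf2rb2) over (Csf2ra + Il3ra), was 0.369 ± 0.00858 in untreated wild type and 0.404 ± 0.0695 in untreated Trim47-/-, and 0.803 ± 0.0467 and 0.831 ± 0.0592 after 5-FU (SD, n = 3 each). All 6 libraries after 5-FU (0.758 to 0.896) lay above all 6 untreated ones (0.326 to 0.458). The genotypes overlapped in both states. No test was made on this ratio. A ratio of messenger RNA says nothing of receptor on the cell surface.

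**Figure D4:**
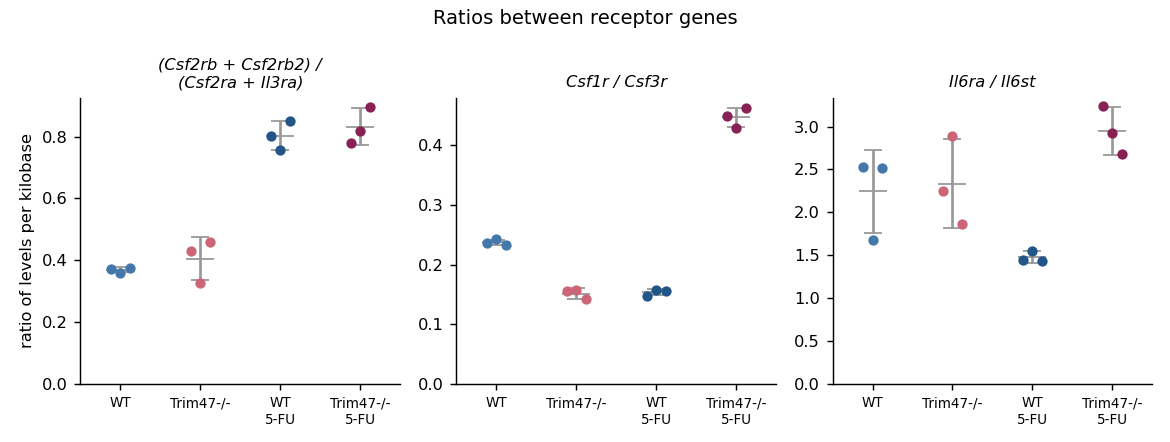
Ratios of levels per kilobase between receptor genes in each library (points) with mean ± SD (n = 3). The beta over alpha ratio is 0.758 to 0.896 in the 6 libraries after 5-FU and 0.326 to 0.458 in the 6 untreated ones, and Csf1r over Csf3r is highest in Trim47-/- after 5-FU (0.447 ± 0.0164).

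Epor, which lets red cell precursors survive and mature, was the receptor with the fewest counts and rose with 5-FU in both genotypes. Its counts were 46, 41 and 41 in untreated wild type, 69, 54 and 66 in untreated Trim47-/-, 112, 115 and 131 in wild type after 5-FU and 84, 65 and 95 in Trim47-/- after 5-FU. In CPM these are 3.18, 2.84 and 2.83, then 3.38, 2.65 and 3.23, then 7.07, 7.27 and 8.29, then 6.07, 4.71 and 6.89. Libraries after 5-FU lay above untreated ones without overlap, the untreated genotypes overlapped, and after 5-FU Trim47-/- lay below wild type. With 5-FU Epor rose 2.55-fold in wild type, log2 1.35 (SE 0.148, adjusted p = 1.60e-05), and 1.91-fold in Trim47-/-, log2 0.93 (SE 0.146, adjusted p = 0.000183), under every alternative. The lower level in Trim47-/- after 5-FU, log2 -0.36 (SE 0.136, adjusted p = 0.0438), kept its call in only 4 of 18 alternatives (adjusted p 0.0155 to 0.174). It was lost with the DESeq2 test (0.105), with only the 6 libraries compared (0.0794), without low-count filtering (0.0591) and without any one of 10 libraries (0.0511 to 0.174), the least change being left without Trim47-/- replicate 2 after 5-FU (log2 -0.22, adjusted p = 0.174). The responses did not pass as different (adjusted p = 0.111), but did without Trim47-/- replicate 3 after 5-FU (0.0418). Erythroid markers rose with 5-FU as well: of 13, 13 rose and 0 fell in wild type (25.2% and 25.4% of all genes). In Trim47-/- 9 rose and 2 fell (29.6% and 30.8%). Between untreated genotypes, where Epor did not pass, 10 of the markers rose and 0 fell in Trim47-/- (17.6% and 15.4%). Summed, they were at 369.7 to 381 and 517 to 538 CPM in untreated wild type and Trim47-/- and 836 to 864 and 628 to 646 CPM after 5-FU, and their part in the Epor result was not tested. Epor lies on chromosome 9 at 21958897 to 21963506, minus strand.

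Il1r1, which carries the IL-1 signal, fell with 5-FU in both genotypes. It stood at 144, 148 and 142 CPM in untreated wild type and 159, 156 and 156 CPM in untreated Trim47-/-, and after 5-FU at 116, 109.8 and 113 CPM in wild type, with 111, 114 and 119 CPM in Trim47-/-. All 6 libraries after 5-FU lay below the 6 untreated ones. The fall was log2 -0.36 (SE 0.0327, adjusted p = 3.49e-06) in wild type and log2 -0.46 (SE 0.0326, adjusted p = 2.69e-07) in Trim47-/-, and held under every alternative. Untreated Trim47-/- was slightly higher than wild type, log2 0.12 (SE 0.0324, adjusted p = 0.0141), a call lost with the DESeq2 test (0.0540) and without untreated wild-type replicate 3 (0.0525). The genotypes after 5-FU overlapped, log2 0.02 (SE 0.0328, adjusted p = 0.617). The responses did not pass as different (adjusted p = 0.0886), but did without low-count filtering (0.0353) and without Trim47-/- replicate 3 after 5-FU (0.0303). Il1r1 lies on chromosome 1 at 40225080 to 40317257, plus strand.

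Ifngr1, which arms cells to respond to interferon-gamma, passed in none of the 5 comparisons, and its libraries were far apart. Its counts were 2180, 1421 and 1405 in untreated wild type, 1552, 2134 and 1610 in untreated Trim47-/-, 1994, 1441 and 1508 in wild type after 5-FU and 1490, 1290 and 1505 in Trim47-/- after 5-FU. One library per group stood apart from the other two, high in 3 groups and low in Trim47-/- after 5-FU. Chi-square per degree of freedom was 115, 58.3, 54.5 and 10.3 in that order, above the 90th percentile of genes in every group. The untreated difference between genotypes was log2 -0.42 (SE 0.186, adjusted p = 0.112) at an unadjusted p = 0.0466, and the standard errors of Ifngr1 were 0.186 in each pairwise comparison, against 0.0208 to 0.0210 for Csf3r. At that error a difference as small as the one seen in Csf3r was not detectable in Ifngr1. It lies on chromosome 10 at 19591949 to 19610229, plus strand, with no annotated gene overlapping it.

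**Figure D5:**
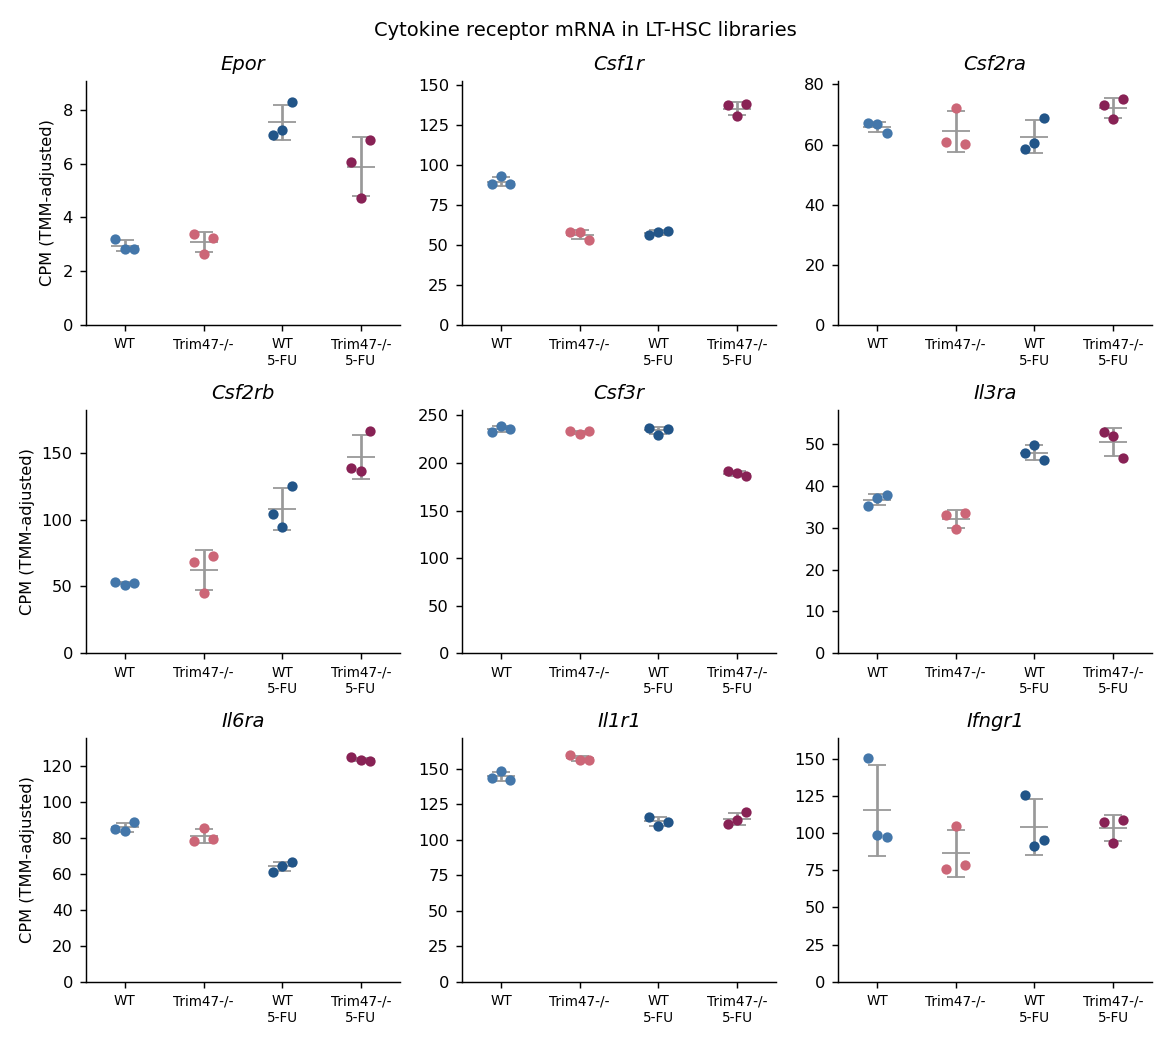
CPM of each receptor gene (vertical axes from 0, 1 scale per gene) in the 12 libraries (points) with mean ± SD (n = 3) per group. Epor, Csf2rb and Il3ra are higher and Il1r1 lower in all 6 libraries after 5-FU, Csf1r and Il6ra are highest in Trim47-/- after 5-FU, and Ifngr1 varies within groups.

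Promoter sequence from RefSeq (GRCm38.p6) is shown for 4 genes that had no exon of a coding gene in the 250 bases before the start site: Epor and Csf2rb2, which rose with 5-FU in both genotypes, Il6ra, which turned, and Il1r1, which fell in both. Capitals mark matches on either strand to GATAA (GATA factors; TTATC on the other strand), to GAGGAA (the core that PU.1 binds; TTCCTC on the other strand) and to TTCNNNGAA (STAT factors). Each line runs 5′ to 3′ on the gene's strand and ends at the base before the start site.
Epor, chr9:21963577-21963826, minus strand: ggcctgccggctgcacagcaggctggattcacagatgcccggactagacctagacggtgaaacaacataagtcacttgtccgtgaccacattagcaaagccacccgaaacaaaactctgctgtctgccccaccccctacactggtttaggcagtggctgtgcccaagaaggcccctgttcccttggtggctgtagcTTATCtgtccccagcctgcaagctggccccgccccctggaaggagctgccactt
Csf2rb2, chr15:78305722-78305971, minus strand: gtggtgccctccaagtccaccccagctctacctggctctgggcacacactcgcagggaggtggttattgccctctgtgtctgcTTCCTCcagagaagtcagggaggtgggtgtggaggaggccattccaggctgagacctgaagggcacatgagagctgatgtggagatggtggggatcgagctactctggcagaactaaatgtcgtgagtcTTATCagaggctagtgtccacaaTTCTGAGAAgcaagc
Il6ra, chr3:89913197-89913446, minus strand: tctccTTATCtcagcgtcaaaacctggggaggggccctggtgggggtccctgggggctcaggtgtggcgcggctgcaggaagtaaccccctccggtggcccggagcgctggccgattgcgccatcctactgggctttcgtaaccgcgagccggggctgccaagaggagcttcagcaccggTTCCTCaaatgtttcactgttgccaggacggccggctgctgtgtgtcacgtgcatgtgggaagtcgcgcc
Il1r1, chr1:40224830-40225079, plus strand: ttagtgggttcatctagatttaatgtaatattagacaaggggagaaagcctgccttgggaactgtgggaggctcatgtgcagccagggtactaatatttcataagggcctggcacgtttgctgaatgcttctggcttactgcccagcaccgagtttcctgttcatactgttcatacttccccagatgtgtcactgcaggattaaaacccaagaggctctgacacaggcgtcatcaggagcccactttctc

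Epor held 1 GATA match, which begins at -54 from the start site, and none of the other motifs. Csf2rb2 held a GATA match at -38, a PU.1 core at -167 and a STAT match at -15, and Il6ra a GATA match at -245 and a PU.1 core at -70. Il1r1 held none of the 3, nor did Ifngr1. RefSeq gives Il1r1 another start site, whose window (chr1:40266336-40266585) is not shown and also held none. Of the other windows, those of Il3ra, Csf3r and Csf2ra had 220, 109 and 11 bases in exons of coding genes and are not described further. For Epor, the bases just after the RefSeq start site were not found in a GENCODE transcript. Of all 32851 RefSeq promoter windows of this length, 22.6% held a GATA match, 23.3% a PU.1 core and 7.02% a STAT match. Single matches to GATA or the PU.1 core are thus common, and those to STAT less so. A match in letters is no evidence of binding, and no match says only that these letters are not in this window. Promoters matched by symbol for 7 of the 9 receptors, all but Csf1r and Csf2rb, and for Csf2rb2.

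Of 8 transcription factors known to act on receptor genes, 5 rose and 2 fell with 5-FU in wild type (50.6% of all genes passed) and 4 rose and 1 fell in Trim47-/- (60.5%). After 5-FU 2 were higher and 4 lower in Trim47-/- than in wild type (54.7% of all genes passed). Gata1, the erythroid factor that acts on Epor, was at 5.01 ± 1.24 and 4.93 ± 0.258 CPM in untreated wild type and Trim47-/- and at 19.3 ± 0.902 and 12.2 ± 0.825 CPM after 5-FU (SD, n = 3 each). Spi1, which encodes PU.1 and acts on Csf1r, was at 198 ± 9.79, 168 ± 4.31, 161 ± 6.22 and 237 ± 0.349 CPM in the same order. It was lower in untreated Trim47-/- (log2 -0.24, adjusted p = 0.000632) and higher in Trim47-/- after 5-FU (log2 0.56, adjusted p = 3.22e-07), the directions in which Csf1r moved. The part of Gata1 or Spi1 in the receptor results was not tested. Tal1, a factor of stem cells and the red lineage, was at 61.9 ± 3.23, 94.2 ± 2.17, 111 ± 1.64 and 54.5 ± 1.56 CPM.

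Among the 4 partner subunits, Csf2rb2 is described above and Ifngr2 was the other that changed. Ifngr2, the second chain of the interferon-gamma receptor, was at 30.7, 29.8 and 29.2 CPM in untreated wild type, 22.1, 21.1 and 22.4 in untreated Trim47-/-, 25.5, 28.7 and 26.7 in wild type after 5-FU and 33.9, 39.8 and 36.5 in Trim47-/- after 5-FU. It was lower in untreated Trim47-/- (log2 -0.45, adjusted p = 0.000340) and higher in Trim47-/- after 5-FU (log2 0.44, adjusted p = 0.000141), while Ifngr1 passed in neither. Per length, Ifngr1 exceeded Ifngr2 by 5.09 ± 1.22-fold in untreated wild type and 3.76 ± 0.574-fold in Trim47-/- after 5-FU (SD, n = 3 each). Il6st, which encodes gp130, passed in no comparison, with group means of 45.8 to 55.8 CPM and replicates up to 1.49-fold apart. Il6ra over Il6st per length was 1.48 ± 0.0669 in wild type and 2.95 ± 0.284 in Trim47-/- after 5-FU, without overlap. Il1rap, the accessory chain that Il1r1 needs, stayed at 18.4 to 19.6 CPM over group means and passed in no comparison. It was well below Il1r1, which per length exceeded it 13.3 ± 0.692-fold in untreated wild type and 10.4 ± 0.832-fold in Trim47-/- after 5-FU.

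The 5 ligand genes that could be tested were all lower in untreated Trim47-/- than in untreated wild type. Of 10 ligands listed, Csf1, Csf3, Il6, Il1a and Il1b passed the filter, and Epo, Csf2 and Ifng had at most 13 counts in a library; Il3 and Il34 are not analysed here. In untreated mice 0 of 5 rose and 5 fell with genotype (15.4% of all genes were lower), and after 5-FU 3 were higher and 0 lower in Trim47-/- (27.2% of all genes were higher). Il1b, a ligand of Il1r1, was at 18.3, 21.1 and 20.6 CPM in untreated wild type, 7.502, 7.66 and 6.79 in untreated Trim47-/-, 3.28, 4.17 and 2.91 in wild type after 5-FU and 4.26, 3.55 and 4.28 in Trim47-/- after 5-FU. It fell with 5-FU 5.77-fold in wild type (adjusted p = 1.93e-08) and 1.81-fold in Trim47-/- (adjusted p = 0.000133), in the same direction as Il1r1. Between untreated genotypes Il1b and Il1r1 went opposite ways. Il1b was lower in Trim47-/- (log2 -1.45, adjusted p = 2.93e-06) and Il1r1 slightly higher (log2 0.12, adjusted p = 0.0141). Il1a, the other agonist, was at 6.55 ± 0.558 CPM in untreated wild type and between 0.527 and 1.68 CPM over the other group means. Il1r2, a decoy receptor that binds IL-1 without signalling, was at 44.7 ± 1.81, 20.8 ± 0.831, 20.4 ± 0.540 and 33.7 ± 3.00 CPM, untreated wild type and Trim47-/- first, then wild type and Trim47-/- after 5-FU. Csf1, the ligand of Csf1r, moved as its receptor did between genotypes, at 19.8, 19.2 and 18.0 CPM against 15.6, 14.1 and 14.1 CPM in untreated mice (log2 -0.38, adjusted p = 0.000671). After 5-FU it was at 17.4, 16.6 and 18.2 CPM in wild type and 26.6, 26.8 and 26.3 CPM in Trim47-/- (log2 0.61, adjusted p = 6.61e-06).

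Downstream of the receptors, 9 of 18 kinases and transducers were lower and 3 higher in Trim47-/- than in wild type after 5-FU, where 27.6% of all genes were lower and 27.2% higher. Those lower included Jak1, Jak2, Jak3, Tyk2, Stat5a and Stat5b, and those higher were Traf6, Shc1 and Ptpn11. In untreated mice 6 of the 18 rose with genotype and 3 fell (33% of all genes passed). 5-FU raised 9 and lowered 3 in wild type (50.6% of all genes passed) and raised 5 and lowered 6 in Trim47-/- (60.5%). Jak3, which serves receptors with the common gamma chain, was at 398 ± 5.21, 439 ± 5.51, 466 ± 1.27 and 334 ± 5.04 CPM (SD, n = 3 each, untreated wild type and Trim47-/- first, then both after 5-FU). Jak1, the kinase of gp130 and interferon receptors, was at 320.1 ± 3.76, 367 ± 0.802, 348 ± 2.09 and 278 ± 2.89 CPM. Stat5b, which carries signals from Epor and the beta-chain receptors, was at 188 ± 5.85, 219 ± 5.20, 259 ± 4.94 and 172 ± 1.9996 CPM, 1.51-fold lower in Trim47-/- after 5-FU (adjusted p = 1.59e-08). Jak1, Jak3 and Stat5b were each lowest in the group where Csf1r, Il6ra and Csf2rb were highest, and a link between them was not tested.

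Of 13 inhibitors tested, 5 rose and 2 fell with genotype in untreated mice (33% of all genes passed), and after 5-FU 3 were higher and 6 lower in Trim47-/- (54.7%). Socs3, which shuts off gp130 and Csf3r signalling and is itself induced by STAT3, was at 389.8, 383 and 378 CPM in untreated wild type, 433, 424 and 419.5 in untreated Trim47-/-, 455, 460.4 and 459 in wild type after 5-FU and 188, 190.2 and 188 in Trim47-/- after 5-FU. It was 2.43-fold lower in Trim47-/- after 5-FU, log2 -1.28 (SE 0.0188, adjusted p = 9.27e-13), where Il6ra was 1.93-fold higher. Dok2, an adaptor that restrains cytokine signalling, was at 45.4 ± 2.83, 58.8 ± 2.43, 41.6 ± 0.984 and 32.9 ± 1.25 CPM.

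Each list of target genes held members that rose and members that fell in nearly all comparisons. The exception was 5-FU in Trim47-/-, where 0 of 5 STAT3 targets rose and 4 fell (29.6% of all genes rose and 30.8% fell). Of 8 STAT5 targets, 2 rose and 5 fell with 5-FU in wild type (50.6% of all genes passed) and 2 rose and 4 fell in Trim47-/- (60.5%), and after 5-FU 2 were higher and 4 lower in Trim47-/- (54.7%). Among them Ccnd2, a cyclin, went from 299.6 ± 7.37 to 141 ± 2.39 CPM in wild type and from 296 ± 3.96 to 202 ± 6.12 CPM in Trim47-/-. Mcl1, a survival factor, went from 1639 to 1124 CPM in wild type and from 1507 to 1198 CPM in Trim47-/-. Of 5 STAT3 targets, 1 was higher and 4 lower in Trim47-/- after 5-FU, where 27.2% of all genes were higher and 27.6% lower. Junb, an AP-1 subunit, was there at 1655 CPM in the wild type against 1066 CPM in Trim47-/-, Cebpb, a myeloid factor, at 106 and 80.3 CPM, and the kinase gene Pim1, also a STAT5 target, at 947 and 757 CPM. Of 16 interferon-gamma targets, 6 rose and 3 fell with genotype in untreated mice (33% of all genes passed), and after 5-FU 6 were higher and 5 lower in Trim47-/- (54.7%). The transcription factor Irf1 fell with 5-FU from 178 ± 8.12 to 102 ± 4.01 CPM in wild type and from 196 ± 6.14 to 106 ± 5.33 CPM in Trim47-/-. After 5-FU the chemokine Cxcl10 was higher in Trim47-/- (log2 0.60, adjusted p = 1.06e-06) and the GTPase Iigp1 lower (log2 -0.92, adjusted p = 1.31e-06).

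Other cytokine receptors gave a setting for the 9. Of 27 listed, 24 were tested, and Osmr, Lepr and Il2ra had at most 11 counts in a library. After 5-FU 4 were higher and 12 lower in Trim47-/- than in wild type (27.2% of all genes were higher and 27.6% lower), with a median log2 change of -0.46 against 0.07 over the 9 members and 0.00 over all genes. Whether the lists differ was not tested. Il17ra, the IL-17 receptor, was at 425 ± 2.52, 394 ± 2.40, 296 ± 1.29 and 394 ± 4.07 CPM, and Il4ra, the alpha chain for IL-4, at 241 ± 4.89, 181 ± 2.61, 162 ± 3.00 and 157 ± 2.85 CPM, untreated wild type and Trim47-/- first, then both after 5-FU (SD, n = 3 each).

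Genes whose level followed each receptor most closely were found by the Pearson correlation of log2 CPM over the 12 libraries, which fall into 4 groups, so the values mostly reflect 4 group means and carry no test. Trem1, a receptor of activated myeloid cells, and Eprs, a transfer RNA synthetase, came nearest to Csf1r (0.993 and 0.995). For Il6ra they were Mapre1 (0.988) and the mitochondrial chaperone Hspa9 (0.986), and for Csf3r the spectrin Sptbn1 (0.987) and Mrm1 (0.981). Epor was followed by Vwf, the von Willebrand factor of megakaryocytes and endothelium (0.979), and Zcchc3 (0.976). Nearest to Il1r1 were Itgb5 (0.992) and Camk1d (0.989), to Il3ra Sema6b (0.980) and Emilin2 (0.974), and to Csf2rb Ebp (0.977) and Gpd1l (0.972). No gene came as close to Csf2ra (Trf, 0.827, and Pex5, 0.824) or Ifngr1 (Strbp, 0.826, and Slc35a4, 0.794), the receptors with no call that held.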

How the data were processed

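The 9 members and all gene lists were chosen with earlier results of these data known. Libraries were stranded and paired-end, from poly-A selected RNA, per the labels' protocols. HISAT2, StringTie, edgeR, CASAVA 1.8 and the build GRCm38 are named, per the submitters' processing notes. The sources used here do not say which tool counted or whether it used strand, so overlapping antisense genes may share reads. The deposited counts are whole numbers per gene, not normalised. The deposited FPKM equals the count divided by library total and a fixed gene length (deviation up to 0.00108% over 11212 genes); in 97.6% of 11201 genes that length matched the sum of all distinct GENCODE M21 exons within 0.01%. Levels per kilobase therefore used merged exons.

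Counts of all 12 libraries entered 1 edgeR 4.0.16 fit (R 4.3.3) with TMM scaling, its default filter (16319 genes kept) and 1 mean per group. Contrasts took the quasi-likelihood test, the SE being the log2 change over the root of F, and p-values were adjusted over all genes tested. Named were all members, the 3 genes with the smallest p between the 4 groups per list (lists of 4 whole), and the 2 genes most like each member by correlation among those at 10 CPM or more. Of the genes this rule names, 1 is not reported here. Chi-square values compare the 3 libraries of a group with counting noise. Alternatives were DESeq2 1.42.0 size factors or test, no filter, the replicate block, only the 6 libraries compared, an adjusted p under 0.01, Csf2rb with Csf2rb2 summed, and each library left out. Deposited FPKM in place of levels per merged kilobase was an alternative added after seeing the data. Python 3.11.15, numpy 2.4.6, pandas 2.3.3 and matplotlib 3.10.9 were used.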

Additional observations from a re-analysis of the deposited data

Results flagged for a closer look

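For 4 receptors the response to 5-FU differed between genotypes by the interaction test in edgeR. On the log2 scale, Trim47-/- minus wild type, the differences were 1.90 for Csf1r, 1.03 for Il6ra, -0.29 for Csf3r and 0.27 for Il3ra (adjusted p = 7.53e-10, 6.81e-08, 7.60e-06 and 0.0232). Csf1r and Il6ra moved in opposite directions in the 2 genotypes, Csf3r fell in Trim47-/- and did not pass in wild type, and Il3ra rose in both. The Il3ra difference kept its call in only 10 of 17 alternatives (adjusted p up to 0.0834), while those of Csf1r, Il6ra and Csf3r kept theirs in all 17. Of all genes tested, 54.9% passed the same test.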

How the results depend on the processing

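Under a stricter adjusted p of 0.01, genes passing with genotype in untreated mice fell from 5392 to 3391, and receptors passing went from 3 to 1 in untreated mice and from 6 to 3 after 5-FU, which needs no other cause than the threshold. Without low-count filtering 3 receptors passed after 5-FU, and the cause was not tested. Leaving out 1 library gave 1 to 3 receptors with genotype in untreated mice (1 without wild-type replicate 3) and 3 to 6 after 5-FU (3 without wild-type replicate 1 or replicate 2 after 5-FU). It gave 4551 to 5436 genes passing in untreated mice. Changes of sign were seen only in receptors without a call, on the log2 scale and with cause not tested. Untreated, Epor ranged from -0.0016 to 0.17 and Csf2ra from -0.12 to 0.017 over single libraries left out. With genotype after 5-FU, Il1r1 was -0.012 without filtering and -0.0074 to 0.047 over left-out libraries, and Ifngr1 was 0.0018 with the replicate block and -0.0978 to 0.15 over left-out libraries. With 5-FU in wild type, Csf3r ranged from -0.0202 to 0.0084 and Ifngr1 from -0.30 to 0.090. Of the receptors' changes under alternatives, 742 kept direction and side of the threshold, 46 lost the call, 7 gained it and 11 changed sign; of changes called in pathway genes 1957 kept and 19 lost the call. Levels by deposited FPKM differed from levels per merged kilobase by more than the replicate spread in 34 of 36 cases. The deposited FPKM differs from them both in the gene length and in using library totals without TMM scaling. No pairing of libraries by replicate number was seen. In their deviations from group means, same-numbered libraries correlated at -0.13 to 0.0818 and others at -0.0985 to 0.101. Of 12 libraries, 4 were closest to their own number. These deviations were close to counting noise for the typical gene, so the check could not exclude a pairing. With the replicate block, 5188 genes passed in untreated mice against 5392. Depth limited Epor most, at 41 to 131 counts in a library.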
